A study of Mus musculus with 4 samples.

Results

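The ATF4-CHOP core of the integrated stress response comprised 6 genes here: Atf4, Ddit3, Atf3, Cebpg, Trib3 and Ppp1r15a. They were chosen by name, as were the related gene lists below, with earlier results of these data known. The shares set beside them are therefore descriptions only. Every probe set with 1 gene symbol that matched a listed gene was taken. This gave 6 probe sets, 1 per gene, out of 6137 genes named on the arrays. Atf4, Atf3 and Trib3 were on the first array type, and Ddit3, Cebpg and Ppp1r15a on the second, which the sample titles mark MB. No probe set with several symbols listed any of the 6 genes. The annotation gave no symbol for 785 of 6523 non-control probe sets on the first type and 4506 of 6534 on MB, so a gene with no named probe set may still be among the unnamed. The names of 5 of the 6 probe sets end in s_at, which in the Affymetrix scheme marks probes that related transcripts may share.

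All 4 arrays were hybridised with total RNA of a stable line of NIH3T3, an immortalised mouse fibroblast line, that expresses wild-type PKR from a promoter that tetracycline represses. One condition was growth with 1 µg/ml tetracycline and 5% fetal calf serum. In the other, PKR was induced by 5 h without tetracycline, and the labels do not state the serum content. Each condition had 1 array of each type. No value therefore has a replicate, no test was possible, and all values describe these 4 arrays. The labels do not say whether the line is 1 clone, which species the PKR sequence came from, or whether both arrays of a condition shared an RNA preparation. Induction of PKR, removal of the drug and any change of medium or serum cannot be told apart. RNA came from whole cultures, so more cells with a transcript and more transcript per cell cannot be told apart either.

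PKR, encoded by Eif2ak2, is a kinase that binds double-stranded RNA and phosphorylates the alpha subunit of the initiation factor eIF2. This phosphorylation lowers the rate of translation in general but favours translation of the Atf4 transcript, whose short upstream reading frames otherwise restrain it. ATF4 protein then enters the nucleus and activates a group of regulators, among them CHOP (Ddit3), ATF3, TRIB3 and GADD34 (Ppp1r15a). Because ATF4 is controlled largely at translation, its transcript level is an incomplete measure of its activity.

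Intensities were as deposited and were not rescaled. A probe set counted as measured when both its readings were above the main floor, set at percentile 25 of all readings of its array type (129.7 on the first type, 80.0 on MB). A stricter control floor was set at percentile 95 of 39 bacterial and yeast control probe sets (281.5 and 340.4). Changes are log2 ratios of the reading after withdrawal to the reading with tetracycline, with no pseudocount. All 6 members exceeded both floors on both arrays. The 2% trimmed mean lay between 996.6 and 1000.4 on the 4 arrays, and the median change of all measured probe sets was -0.01 on the first type and 0.02 on MB. Of the 39 controls, 4 on the first type exceeded the main floor on both arrays, with 0 higher and 1 lower by 2-fold. On MB 11 did, with 1 higher and 2 lower, and the part of such background signal in the members' changes was not tested. The mouse Eif2ak2 probe set read 643.3 with tetracycline and 663.6 after withdrawal, and it cannot check the induction, since it may not detect the PKR sequence introduced.

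The 6 genes read higher after withdrawal without exception, by 1.33-fold to 4.32-fold, with a median log2 change of 1.05. Of everything measured, 48.9% was higher to any extent on the first type and 52.5% on MB. Trib3, Ppp1r15a, Cebpg and Atf3 were at least 2-fold higher, 2 of 3 members on each array type. For comparison, 4.36% of all 4402 probe sets measured on the first type, and 8.46% of the 4360 on MB, were at least 2-fold higher. Above the control floor these shares were 1.88% of 3555 and 1.97% of 2738, and the same 4 members were counted. No member was lower by 2-fold, beside 4.02% and 6.65% of all measured probe sets. With 6 members a count of 0 is near those shares and says little. Atf3, at 2.02-fold, lay just inside the limit and Ddit3, at 1.90-fold, just outside it.

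**Figure D1:**
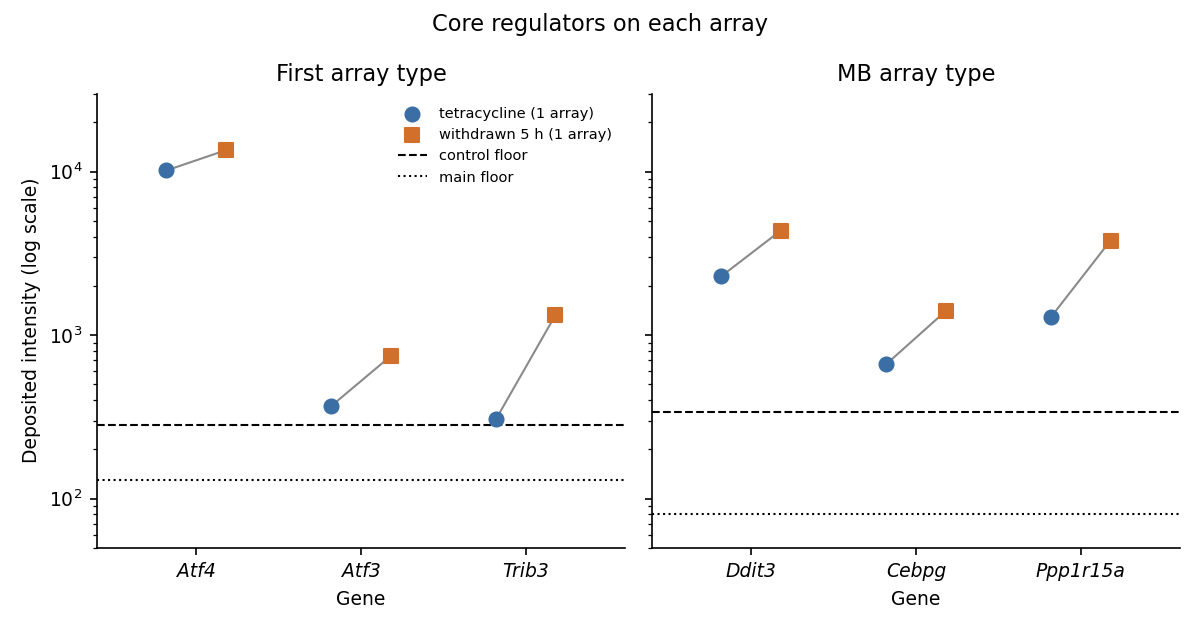
Deposited intensity (log axis) of each member with tetracycline (circles) and after 5 h of withdrawal (squares), 1 array per point, with the main floor (dotted) and the control floor (dashed) of each array type. Every square lies above its circle, and Trib3 with tetracycline lies closest to the control floor, at 306.8 against 281.5. Levels of different genes come from different probes and are not comparable.

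Atf4 encodes the bZIP transcription factor at the centre of the response. Its probe set (m94087_s_at, first type) read 10151.2 with tetracycline and 13494.4 after withdrawal. This was the smallest change among the 6 in proportion, 1.33-fold or 0.41 on the log2 scale, on a transcript read far above the control floor on both arrays. The 200 probe sets nearest to it in mean level had a median change of -0.12 and a robust SD, computed from their median absolute deviation, of 0.26. Of these 200, 11 changed upward by at least as much as Atf4. Over all measured probe sets of the first type, 19.3% did so.

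Ddit3 encodes CHOP, a bZIP factor that forms dimers with C/EBP proteins and promotes death under lasting stress. It read 2292.7 with tetracycline and 4357.3 after withdrawal (X67083_s_at, MB), a log2 change of 0.93. Only 2 of the 200 probe sets of like level were as far upward, and their robust SD was 0.32. Across all levels of the MB type 9.68% were, since dim probe sets spread more widely. Above the control floor the share fell to 2.52%.

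Atf3 encodes a bZIP factor that is switched on by many stresses and acts often as a repressor. The reading went from 368.4 to 743.1 (u19118_s_at, first type), a log2 change of 1.01. Both readings were low: with tetracycline the value was 1.31 times the control floor, and 1 of the 39 controls read at least as high on that array. Probe sets of this level had a robust SD of 0.61, the widest beside any member, and 10 of 200 matched or exceeded the change.

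Cebpg encodes C/EBP gamma, a short C/EBP protein that pairs with ATF4. It read 663.9 with tetracycline and 1401.5 after withdrawal (X55499_s_at, MB), 2.11-fold higher or 1.08 on the log2 scale. At this level the robust SD was 0.41, and 3 of 200 neighbours were as far upward. Both readings were above all 39 controls of their arrays. The highest control after withdrawal was not far below Cebpg, at 1212.8, and had read 263.8 with tetracycline. With the trend of change on level removed by loess, Cebpg lay just under 2-fold, which left 3 members past the limit.

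Trib3 encodes a pseudokinase that ATF4 and CHOP induce and that binds both ATF4 and the kinase AKT. It had the largest change, from 306.8 to 1326 (C76863_rc_at, first type), 4.32-fold or 2.11 on the log2 scale. None of its 200 neighbours in level reached this, with a highest value of 1.90 and a robust SD of 0.49. It ranked 12th among 4402 measured probe sets, and above the control floor 2nd of 3555. The tetracycline reading was only 1.09 times the control floor, and 2 of 39 controls read at least as high there. The withdrawn reading was 2.96 times the highest control reading with tetracycline, 447.5.

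Ppp1r15a encodes GADD34, which brings protein phosphatase 1 to eIF2 alpha and so reverses the phosphorylation. Its probe set (X51829_s_at, MB) read 1293.3 with tetracycline and 3786.4 after withdrawal, 2.93-fold higher or 1.55 on the log2 scale. Both readings were well above all 39 controls of their arrays. None of the 200 probe sets of like level changed upward as much: their highest value was 1.07 and their robust SD 0.28. Above the control floor it ranked 6th of 2738 on the MB type.

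**Figure D2:**
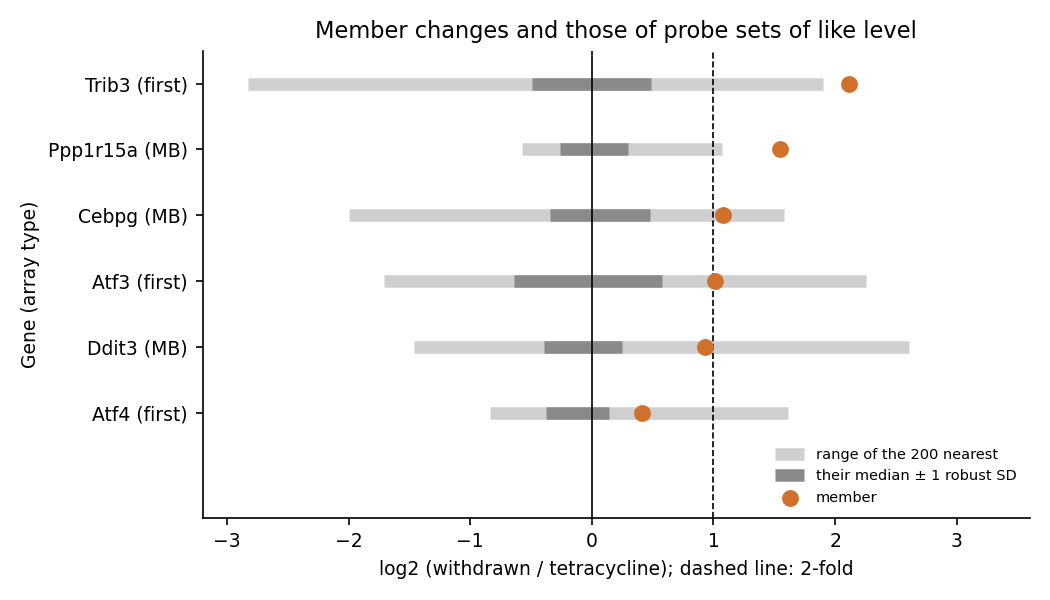
Log2 change of each member (points) beside the 200 probe sets of the same array type nearest in level: their range (light bars) and their median ± 1 robust SD (dark bars). Trib3 and Ppp1r15a lie beyond the whole range of their neighbours, and the other 4 members lie beyond the dark bar but inside the range.

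The spread beside each change mixes probe noise with real differences among other genes, and it is no replicate error. Measured against it, the order of the members differed from the order by size. Atf3 had a larger log2 change than Ddit3, 1.01 against 0.93, but the spread among its neighbours was 0.61 against 0.32. The members on different array types were read on different arrays, so their changes are set side by side as values only.

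The probe set most like each member was sought among those with 1 other symbol on the same array type, by distance between log2 intensities on both arrays. For Atf4 it was Bsg, the surface glycoprotein basigin (10347 to 13104, distance 0.051). For Atf3 it was Nupr1l (375 to 732.1, distance 0.033). Ddit3 had Tra2b, a splicing regulator (2513.3 to 4721.2, distance 0.176), and Cebpg had Pvr, the poliovirus receptor homologue (646.4 to 1331.1, distance 0.084). Trib3 and Ppp1r15a had the most distant neighbours: the extracellular superoxide dismutase gene Sod3 (318.7 to 1096.2, distance 0.280) and the kinase gene Pim1 (1538.4 to 3184.3, distance 0.354). With 2 arrays per comparison, likeness here means a similar pair of readings and no more.

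All 6 members had a promoter window in the RefSeq table of GRCm38.p6, from 250 bases before to 50 after the annotated start. The windows were searched on both strands for 4 motifs: the composite C/EBP-ATF core TGATGNAA, to which ATF4 binds with C/EBP partners, the cyclic AMP response element (CRE) core TGACG, the full CRE TGACGTCA, which contains the core on both strands, and the CCAAT box, CCAAT. The full CRE was added after the sequences were seen. The composite core was in the windows of Atf3 and Trib3, 2 of 6, against 3.97% of all 32851 windows. The CRE core was in 4 of 6 (Atf4, Atf3, Trib3 and Ppp1r15a) against 20.8%, the full CRE in Ppp1r15a alone against 1.79%, and the CCAAT box in 4 of 6 (Atf4, Ddit3, Atf3 and Cebpg) against 37.4%. Over the 6262 windows of genes named on the arrays, a background added after the shares over all windows were seen, these shares were 2.67% for the composite core, 28.5% for the CRE core, 2.54% for the full CRE and 37.1% for the CCAAT box. A match is a run of letters and not evidence of binding, and no match says only that these letters are not in this window.

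The 40 bases before the start of each member are shown because the CRE core lay within the last 20 of them in 4 of 6 members. It did so in 2.16% of all windows and in 3.24% of those of genes named on the arrays, and this stretch was chosen after the sequences were seen. Capitals mark the CRE core, the full CRE and the CCAAT box. The stretches are given 5′ to 3′ in the direction of transcription, in the order of the member list.
Atf4, chr15:80255144-80255183, plus strand: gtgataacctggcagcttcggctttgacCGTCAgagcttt
Ddit3, chr10:127290753-127290792, plus strand: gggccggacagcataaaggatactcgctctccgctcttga
Atf3, chr1:191183334-191183373, minus strand: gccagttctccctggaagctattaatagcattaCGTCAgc
Cebpg, chr7:35056567-35056606, minus strand: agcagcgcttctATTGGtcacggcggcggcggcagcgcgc
Trib3, chr2:152344061-152344100, minus strand: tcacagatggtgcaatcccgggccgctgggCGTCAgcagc
Ppp1r15a, chr7:45526269-45526308, minus strand: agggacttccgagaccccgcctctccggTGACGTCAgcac
Atf4, whose transcript changed least, and Trib3, whose transcript changed most, both held the core here, and Cebpg and Ddit3, with intermediate changes, did not.

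The composite core is shown for both members that held it, in capitals, on the reverse strand in each. In Atf3 it lay from position -110 to -103, before the start, and in Trib3 from 15 to 22, within the transcribed part.
Atf3, chr1:191183424-191183453, minus strand: cttctcgcacTTGCATCAccaagtccgcgg
Trib3, chr2:152344031-152344055, minus strand: agctcaggtTTACATCAgccgggcg
In the 250 bases before the start alone, 1 member, Atf3, held the composite core.

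**Figure D3:**
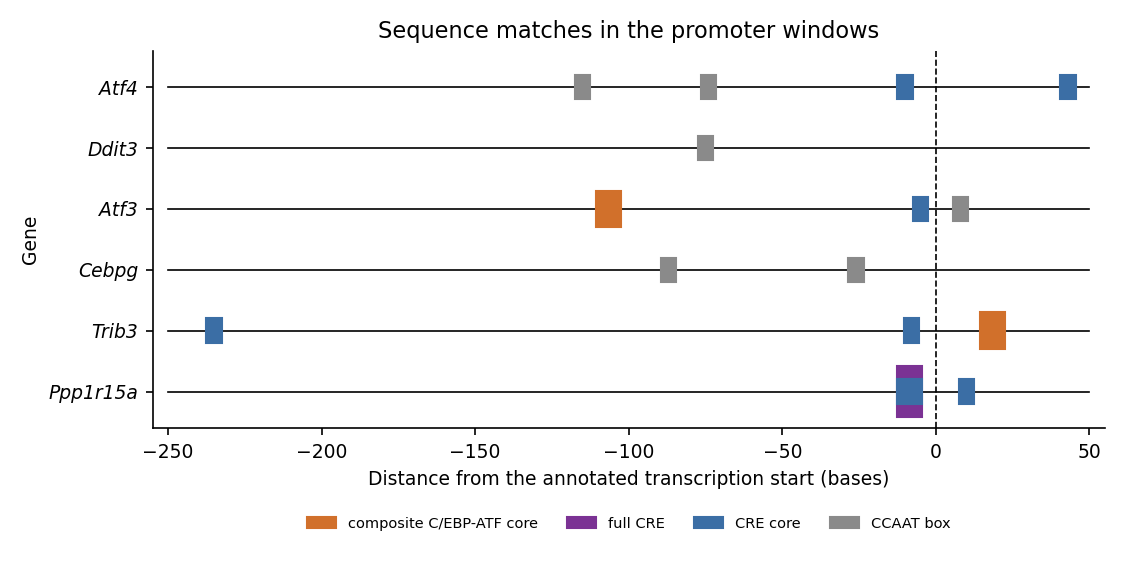
Matches in the promoter window of each member, by distance from the annotated start in bases (dashed line): composite C/EBP-ATF core, full CRE, CRE core and CCAAT box. A CRE core lies just before the start in Atf4, Atf3, Trib3 and Ppp1r15a, and the composite core lies in Atf3 and Trib3 only.

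Other genes with the composite core in a RefSeq window were then described in the same way. On the first type 9 of 88 such probe sets were at least 2-fold higher (10.2%), against 4.50% of the 3153 measured probe sets with any window in the table. Without Atf3 and Trib3 the count was 7 of 86 (8.14%). On MB it was 3 of 33 (9.09%) against 7.67% of 1160. Of the 12, those above the control floor on both arrays were Trib3 and Atf3 themselves, the neutral amino acid transporter gene Slc1a4 (353.3 to 868.1, log2 change 1.30), the endoplasmic reticulum protein gene Herpud1 (636.7 to 1516.3, 1.25) and Arhgef2 (764.7 to 1900.2, 1.31). Slc1a4 and Arhgef2 were picked after their values were seen. At least 2-fold lower were 2 of the 88 (2.27%, against 3.74%) and 2 of the 33 (6.06%, against 6.03%). With the CRE core, members included, 53 of 1205 were at least 2-fold higher on the first type (4.40%, against 4.50%). On MB 23 of 375 were (6.13%, against 7.67%). The full CRE gave 6.36% and 4.65%, and the CCAAT box 4.38% and 7.48%. The counts for the composite core are small, and nothing particular to a motif is drawn from these values.

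Genes whose products act on eIF2 alongside GADD34 had small changes in transcript. Of 24 listed genes 14 had a named probe set, with 17 measured probe sets. Of these 0 were 2-fold higher and 0 lower, beside 6.40% and 5.33% of all measured probe sets. With 17 probe sets, counts of 0 are near those shares and say little. Their median log2 change was 0.07, beside 0.01 for all 8762 measured probe sets of both types. Ppp1r15b, which encodes CReP, the constitutive counterpart of GADD34, had the largest value, 1880.8 to 2775.1 or 0.56 on the log2 scale. The phosphatase 1 catalytic subunit genes that GADD34 recruits gave -0.35 (Ppp1ca), 0.23 (Ppp1cb) and 0.45 (Ppp1cc). The regulatory subunit gene Ppp1r15a, read on MB, was at 1.55. The catalytic subunit genes were read on the first type, and none was past 2-fold. Of all probe sets measured there 4.36% were 2-fold higher and 4.02% lower, so this says little. Of the 4 eIF2 alpha kinase genes only Eif2ak2 had a named probe set, and Eif2s1, which encodes the subunit they phosphorylate, had none.

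The other bZIP factors, the family that supplies partners to ATF4, CHOP, ATF3 and C/EBP gamma, were more often higher. Of 38 listed genes 28 had a named probe set, and 21 of 29 measured probe sets were higher to any extent (72.4%), beside 50.7% of all measured probe sets. At least 2-fold higher were 3 (10.3%, beside 6.40%) and lower 0 (beside 5.33%), with a median of 0.38. The 3 were the AP-1 subunit gene Junb (665.3 to 1903.8, log2 change 1.52), the repressor gene Bach1 (383.1 to 895.9, 1.23) and the AP-1 subunit gene Fosl1 (1791.6 to 3776.4, 1.08). By array type, the share of all measured probe sets was 4.36% on the first, with Junb and Bach1, and 8.46% on MB, with this Fosl1 probe set. A second Bach1 probe set gave 0.07 and a second Fosl1 probe set 0.38.

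Within that family Cebpb and Cebpd, the only other measured genes with a Cebp symbol, had smaller changes than Cebpg. Cebpe had no named probe set. Cebpb read 10130.2 and 13365.3 (0.40) and Cebpd 2754.9 and 3176.8 (0.21), both on the MB arrays that gave 1.08 for Cebpg. Cebpa was under the main floor after withdrawal (116.8 and 51.3). Among the other ATF genes, Atf5 gave 0.17 and Atf6 -0.61 (754.9 to 494), while its relative Atf6b gave 0.50 (944.6 to 1337). Atf2 gave 0.80 on 1 probe set (428.9 to 748.9), while its second probe set was below the floor on both arrays. Picked after their values were seen, Jun (819.8 to 1621.8, 0.98), Nfil3 (777.1 to 1530.3, 0.98) and Xbp1 (2337.8 to 4210.3, 0.85) were close to 2-fold and above the control floor.

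Effector genes of the response, from amino acid supply to cell death, had a median log2 change of 0.40, beside 1.05 for the 6 regulators. Of 52 listed genes 27 had a named probe set, and 26 of 32 measured probe sets were higher to any extent (81.2%, beside 50.7%). The 6 lower ones included those of the serine and glycine synthesis genes Shmt2 (-0.57), Psat1 (-0.29) and Phgdh (-0.10), picked after their values were seen. The changes of Psat1 and Phgdh were smaller than the robust SD of probe sets of like level (0.32 and 0.28). Other listed metabolic genes were higher, among them Pck2 (0.90), Mthfd2 (0.70) and Aldh18a1 (0.43), also picked after their values were seen. At least 2-fold higher were 3 (9.38%, beside 6.40%): Gadd45a, a stress gene of growth arrest, whose 2.25 was above every regulator, Herpud1 (1.25) and Bcl2l11, which encodes the pro-apoptotic protein BIM (1.12). These were all on the first type, where 4.36% of all measured probe sets were 2-fold higher, beside 8.46% on MB. Bcl2l11 was under the control floor with tetracycline. Above that floor on both arrays the count was 2 of 29 (6.90%), beside 1.92% of all probe sets. Jun is counted in this list and among the bZIP factors.

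Partners of TRIB3 had no value past 2-fold among 4 measured probe sets, beside 6.40% higher and 5.33% lower of all measured probe sets. With so few this says little. The AKT kinase genes gave -0.36 (Akt1) and 0.28 (Akt2), Rela, which encodes an NF-kB subunit, 0.38, and the ubiquitin ligase gene Cop1 0.69, with Cop1 under the control floor with tetracycline. Trib1 and Trib2, the paralogues of Trib3, had no named probe set here.

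**Figure D4:**
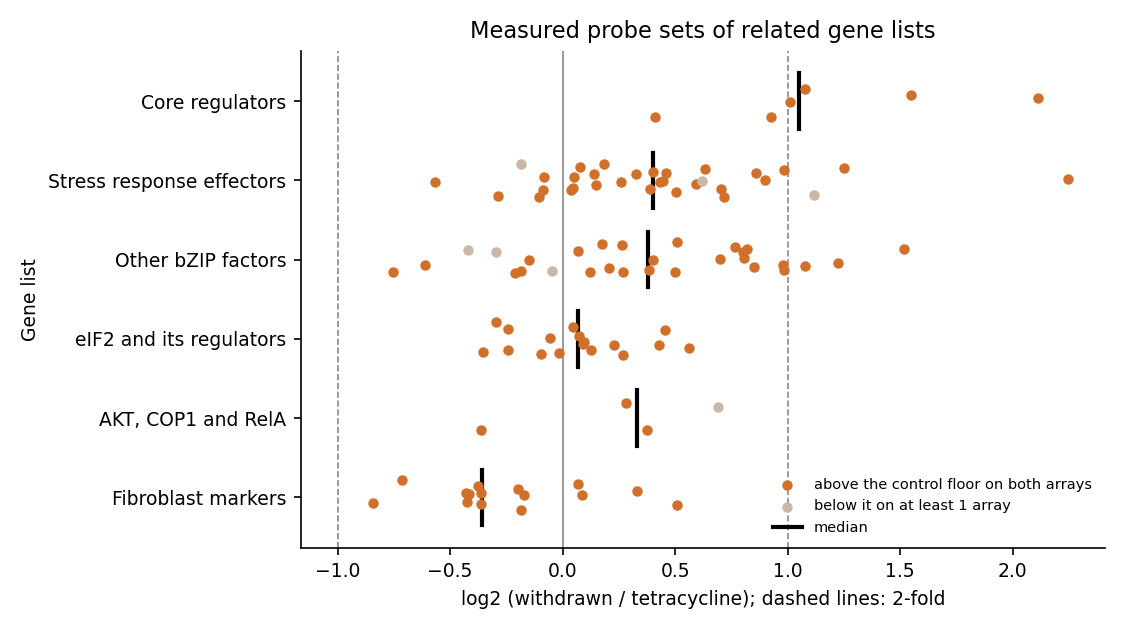
Log2 change of each measured probe set in the related gene lists and the fibroblast markers, with the list median as a bar; pale points did not clear the control floor on both arrays, and vertical scatter has no meaning. The core regulators have a median of 1.05, the effectors 0.40, the other bZIP factors 0.38 and the eIF2 genes 0.07.

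The labelled cell type was checked by markers. All 10 fibroblast markers had a named probe set, and 15 of their 16 probe sets were measured, all above the control floor. Their median change was -0.36, with 11 of 15 lower, and their summed intensity went from 60744 to 49161 on the first type and from 147030 to 121838 on MB. Of the epithelial markers 2 of 6 probe sets were measured, of the leukocyte markers 4 of 5 and of the endothelial markers 1 of 4. Krt8 and Ptprc, 1 probe set each, were the only ones of these above the control floor on both arrays. No marker of any list read 0, and the part of these markers in the members' changes was not tested.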

How the data were processed

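Per the labels, total RNA of NIH3T3 cells was measured on 4 arrays. The values the authors deposited are linear intensities, 1 for each probe set on an array. How they were derived from the scans is not stated in the labels or file headers. The 2% trimmed means of each pair of arrays lay within 5%, so the deposited intensities were used without rescaling. Gene names came from the annotation of the array platforms, updated by Entrez identifier to RefSeq GRCm38.p6: 5532 of 5541 probe sets with 1 symbol matched on the first type and 1993 of 2001 on MB. The 61 control probe sets per type stayed out of all counts. With 1 array per condition and type no p-value was computed. The number of arrays limits the precision.

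The members, gene lists and alternatives were chosen with earlier results of these data known. Named are all members, listed genes past 2-fold (at most 6 per list), close relatives of members and the probe set nearest to each member. Exceptions are marked. Alternatives were 4 scalings, a pseudocount of 100, other floors and fold limits, and the brightest probe set per gene. Scripts were checked on simulated arrays. Python 3.11.15, numpy 2.4.6, pandas 2.3.3 and statsmodels 0.14.6 were used.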

Additional observations from a re-analysis of the deposited data

How the results depend on the processing

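Every member kept its direction under the 4 scalings. A pseudocount of 100, added to both readings, cannot change a direction. Each of the 30 values under the scalings and the pseudocount differed from the reported one by less than the robust SD of probe sets of like level. Trimmed mean and median ratio scaling could move the values little, because the arrays were already close in trimmed mean and median change. The log2 changes ranged from 1.81 to 2.12 for Trib3, 1.48 to 1.55 for Ppp1r15a, 0.97 to 1.08 for Cebpg, 0.85 to 1.04 for Atf3, 0.90 to 0.96 for Ddit3 and 0.41 to 0.52 for Atf4. The low ends for Trib3, Ppp1r15a, Cebpg and Atf3 came from the pseudocount. It shrinks changes by construction, most for dim probe sets. The count of 4 members past the limit was 3 with the level trend removed, 5 at a 1.5-fold limit and 1 (Trib3) at a 3-fold limit. It stayed 4 under the other scalings. The other floors could not change it, because every member exceeded all of them on both arrays. Over all probe sets the counts of 192 and 369 that were 2-fold higher became 368 and 619 at the lower floor (64.9 and 40.0), 71 and 165 at the higher floor (259 and 160), 67 and 54 at the control floor, 545 and 769 at 1.5-fold and 46 and 136 at 3-fold. All 12 list medians under alternatives kept their sign. The count of members with the composite core fell from 2 to 1 before the start alone. Readings near the control floor limit Trib3 and Atf3 most. No paired analysis was possible because each condition has 1 array per type and no replicate.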
